A study of Mus musculus with 6 samples.

Results

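The genes described here are 36 genes of fat cell formation and of the fat cell itself, chosen by name from what they are known to do, with earlier results of these data known. Of these, 35 had a probe among the 30854 gene names of the array, with 53 probes of 45281 in all, and no probe was named ACACA, which codes for acetyl-CoA carboxylase. Total RNA came from pure cultures of PA6 cells, a mouse stromal line, grown to confluence and then kept for 3 h in serum-free medium, and it was hybridised to Illumina MouseWG-6 arrays. The groups were -GFs, with no growth factor added, FGF2 at 20 ng/ml and BMP4 at 10 ng/ml, with 2 arrays each. Each of the 2 biological replicates gave 1 well to every group, so that the 3 arrays of a replicate number belong together. The cells are 1 line, and no array of another stromal line stands beside them.

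Fat cells arise from preadipocytes through a cascade of transcription factors, in which C/EBPβ and C/EBPδ act early and then give way to PPARγ, which pairs with RXRα, and C/EBPα. These factors switch on the genes for taking up fatty acids, building triglycerides and coating the lipid droplet, and mature fat cells release hormones such as adiponectin and leptin. PA6 cells come from the skull bone of newborn mice, support blood-forming and embryonic stem cells in co-culture, and are known as preadipose cells that can turn into fat cells.

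A probe was counted as detected on an array where its detection p, which ranks it against the array's negative control probes, was under 0.05, and 15509 to 16459 probes were detected per array. Values are mean bead intensities after cubic spline normalization between arrays. They compare arrays for 1 gene and not 1 gene with another. A gene entered the tests if 1 or more groups had its probe detected on each of their arrays, which held for 11872 genes. All 11 markers of stromal fibroblasts, the cell type of the label, were detected on all 6 arrays. Of the other cell types, PTPRC, CD68, EMR1, ITGAM, LYZS and TYROBP of macrophages and PECAM1, CDH5, TIE1 and EMCN of endothelium were detected on none. The same held for RUNX2, IBSP, DMP1 and PHEX of osteoblasts and NANOG, SOX2 and ZFP42 of ES cells. CD14 and LYZ2, TEK, BGLAP2 and POU5F1 were detected on all 6. In between were CSF1R of macrophages on 5 arrays and KDR of endothelium and AKP2 of osteoblasts on 4 each. DPPA5 and ESRRB of ES cells were detected on 3 and 2 arrays, and SP7 and BGLAP1 of osteoblasts on 1 each.

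Most transcription factors of the fat cell programme were detected on every array, and several genes of the mature fat cell were detected on none. Of the 36 genes, 24 were tested and 17 were detected on all 6 arrays, among them PPARG, CEBPB, CEBPD and RXRA of the transcription factors and DLK1, the preadipocyte factor also known as Pref-1. A further 6 were detected on some arrays but on both arrays of no group. They were ADIPOQ (adiponectin), the lipid droplet proteins CIDEC and PLIN (perilipin), the hormone-sensitive lipase LIPE, the glycerol channel AQP7 and the transcription factor KLF15. No probe was detected on any array for 5 genes, which were the fatty acid carriers CD36 and FABP4, the lipid droplet protein CIDEA, the hormone RETN (resistin) and ZFP423, a factor of preadipocyte commitment.

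The undetected genes gave values such as these. FABP4 had intensities of 116 and 130 in -GFs, 116 and 127 with FGF2, and 121 and 115 with BMP4. CD36 had 120 and 141 in -GFs, 123 and 148 with FGF2, and 153 and 144 with BMP4. The groups overlapped in FABP4, and in CD36 both BMP4 arrays lay above both -GFs arrays, with all of them below detection. PLIN, the coat protein of fat cell droplets, was detected on 2 of 6 arrays, FGF2 replicate 2 at 205 and BMP4 replicate 2 at 237, and its other 4 arrays lay between 147 and 190. At these intensities a low level of RNA cannot be told from none.

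Several fat cell genes differed between the replicate numbers in all 3 groups. ADIPOQ, the hormone adiponectin of mature fat cells, was detected on the 3 arrays of replicate 2 and on none of replicate 1. Its normalized intensities in replicate 1 were 151 in -GFs, 158 with FGF2 and 156 with BMP4, and in replicate 2 they were 2581, 1750 and 2285. The deposited intensities, before any normalization, were 156, 157.8 and 148.7 in replicate 1 and 2453.5, 1658.1 and 2372.4 in replicate 2. All 3 arrays of replicate 2 thus lay above all 3 of replicate 1, and the adiponectin signal was at least 11.5-fold higher in replicate 2, taking as the limit of replicate 1 the lowest signal of a detected probe. CIDEC, which helps lipid droplets to grow, was split in the same way, with 111, 123 and 135 in replicate 1 and 283, 230 and 355 in replicate 2, at least 1.5-fold higher and again detected only on the arrays of replicate 2. Both genes fell outside the filter of the tests for the same reason. In whole cultures, fewer cells of a type and less RNA per cell cannot be told apart.

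Of the 24 members tested, 4 were more than 2-fold higher in replicate 2 within each of -GFs, FGF2 and BMP4, and none was more than 2-fold lower. Among all 11872 genes, 0.312% passed this limit in either direction and 0.16%, or 19 genes, passed it upward. The fat cell genes were listed with this difference already known, and each replicate number is 1 set of 3 wells, so that the counts are a description and carry no test.

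The 4 genes were secreted or membrane proteins of fat cells. RARRES2, which codes for the adipokine chemerin, had intensities of 1111, 999 and 851 in replicate 1 of -GFs, FGF2 and BMP4 and 4431, 3121 and 4521 in replicate 2, which was 3.99, 3.12 and 5.31 times as high. CFD, which codes for the complement protease adipsin, had 169, 195 and 154 in replicate 1 and 699, 446 and 608 in replicate 2. It was detected on 1 of the 3 arrays of replicate 1, that of FGF2, where it was 2.29 times as high in replicate 2. Against the limit of detection it was at least 3.70-fold higher in -GFs and at least 3.20-fold with BMP4. In both genes the arrays of the 2 numbers did not overlap, and FGF2 replicate 2 was the lowest array of replicate 2.

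LPL, the lipase that frees fatty acids from circulating lipoproteins, had 221, 165 and 221 in replicate 1 and 675, 621 and 835 in replicate 2, and it was not detected in FGF2 replicate 1, which makes the difference there at least 3.24-fold. MRAP, the accessory protein that brings the ACTH receptor to the cell surface and is also made by fat cells, had 194, 233 and 214 in replicate 1 and 647, 753 and 649 in replicate 2. Its 3 ratios lay close together, at 3.34, 3.23 and 3.04.

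**Figure D1:**
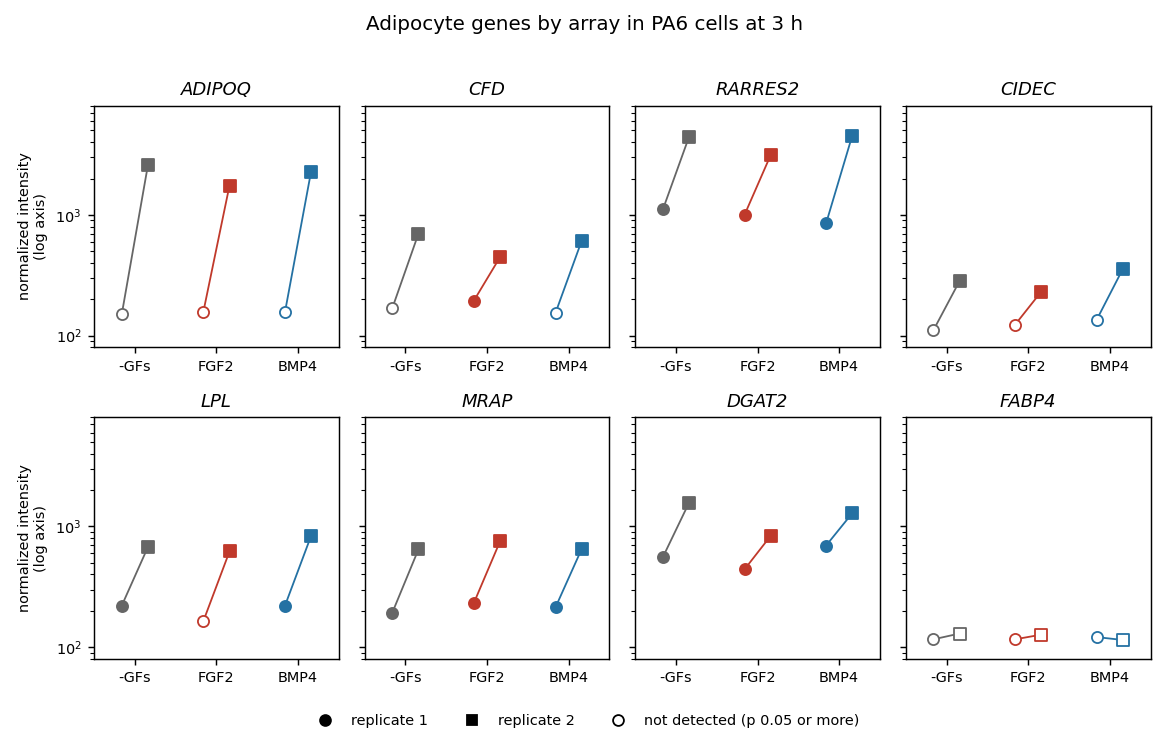
Normalized intensity (log axis, same range in all panels) of 8 fat cell genes on the 6 arrays, with replicate 1 as circles and replicate 2 as squares joined within each group; open symbols mark arrays where the probe was not detected. ADIPOQ goes from 151 to 158 in replicate 1 to between 1750 and 2581 in replicate 2, CFD, RARRES2, LPL and MRAP are more than 2-fold higher in replicate 2 in every group, and FABP4 stays between 115 and 130.

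The difference did not extend to every member. DGAT2, which catalyses the last step of triglyceride synthesis, was 2.82-fold higher in replicate 2 in -GFs, 1.89-fold with FGF2 and 1.85-fold with BMP4. ACSL1, which activates long-chain fatty acids, was 1.69-, 1.5- and 1.47-fold higher, and PNPLA2, the lipase that starts the breakdown of stored triglyceride, 1.39-, 1.38- and 1.53-fold. Higher in replicate 2 in all 3 groups by any amount were 12 of 24 members, against 28.1% of all genes, and lower in all 3 were 2 of 24, CEBPD and the DLK1 probe used, against 25.1%. The second DLK1 probe gave 0.18, 0.02 and -0.07 on the log2 scale, and both lie near the upper end of the intensities. The transcription factors differed by less than 2-fold in every group. A second probe of PPARG, ILMN_1221594, was higher in replicate 2 by 0.23, 0.46 and 0.54 on the log2 scale in -GFs, FGF2 and BMP4. It was not detected in replicate 1 of -GFs and of BMP4. Values of the probes used follow. The mean difference on the log2 scale was 0.28 for PPARG (from -0.02 to 0.49), 0.25 for CEBPA (0.17 to 0.29, with both FGF2 arrays undetected), 0.16 for CEBPB (-0.15 to 0.32), -0.07 for CEBPD (-0.12 to -0.01) and 0.04 for RXRA (-0.27 to 0.42).

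Probes of 1 gene did not always move together. RARRES2 had 3 probes detected on all arrays. ILMN_3003130, whose values are given above, and ILMN_2596655 were both higher in replicate 2, the latter by 1.84, 1.59 and 1.85 on the log2 scale in -GFs, FGF2 and BMP4. ILMN_2588295 differed between replicate numbers by 0.18, -0.08 and 0.06 only. The second probe of LPL, ILMN_2585447, was detected on no array, so that LPL rests on 1 probe, as do ADIPOQ, CFD and MRAP.

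Other cell type markers gave these values by replicate number. Of the 11 stromal markers, LUM (lumican, a matrix proteoglycan) was also more than 2-fold higher in replicate 2 in all 3 groups, with 290, 270 and 326 against 741, 786 and 679. By any amount 3 of the 11 were higher in replicate 2 in all 3 groups and 3 were lower, against 28.1% and 25.1% of all genes. Besides LUM, those higher were COL3A1, with 1664, 1271 and 2080 against 2999, 2863 and 3110, and COL1A2, with 6071, 4035 and 5182 against 6902, 6711 and 7206. Those lower were S100A4, with 2017, 1814 and 1848 against 1181, 1095 and 1072, the chemokine CXCL12, with 33602, 23782 and 36221 against 23604, 18621 and 25046, and THY1, with 10071, 9641 and 11146 against 8409, 6312 and 7036. The intensities of all 11 summed to between 120700 and 144200 in replicate 1 and between 122400 and 131500 in replicate 2. DCN alone gave 40847 to 48262 of these stromal sums, which therefore say little of dimmer markers such as LUM and S100A4. For the 9 macrophage markers the sums ran from 2975 to 3330 and from 3076 to 3312, and for the 6 endothelial markers from 1033 to 1046 and from 1064 to 1285. For the 8 osteoblast markers they ran from 1359 to 1544 and from 1366 to 1530, and for the 6 ES cell markers from 952.8 to 1108 and from 1006 to 1067. Of these markers, 6 of macrophages, 4 of endothelium, 4 of osteoblasts and 3 of ES cells were detected on no array. Such markers add background to the sums, and CD14 alone gave 1556 to 2009 of the macrophage sums. By any amount, 4 macrophage, 2 endothelial and 1 ES cell marker were higher in replicate 2 in all 3 groups. Lower in all 3 were 1 macrophage and 1 osteoblast marker. These counts include undetected markers. The part of these cell types in the difference was not tested.

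**Figure D2:**
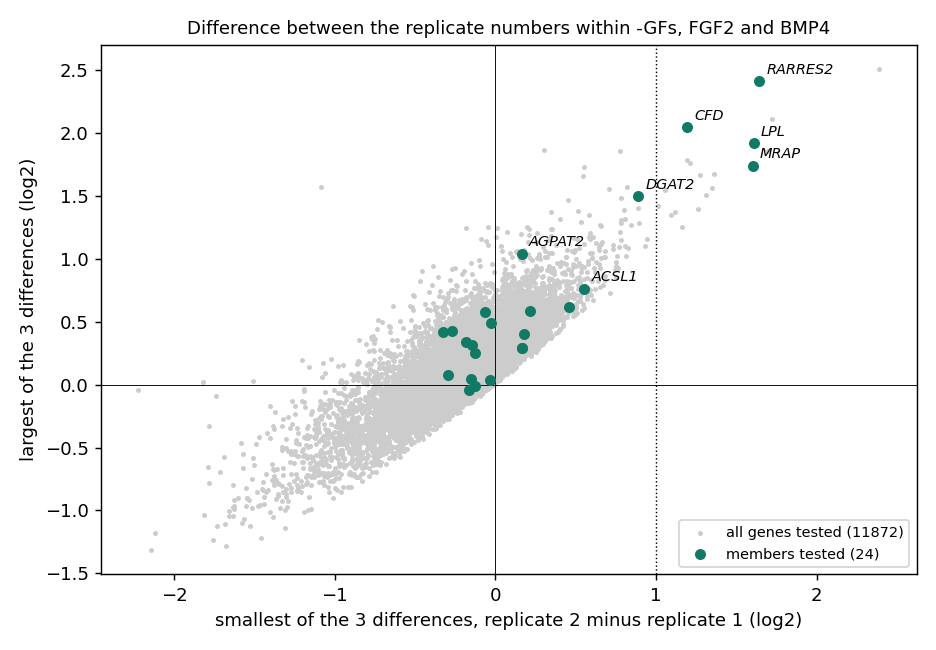
Smallest (x axis) and largest (y axis) of the 3 differences between replicate 2 and replicate 1, on the log2 scale, for the 11872 genes tested (grey) and the 24 fat cell genes (green). RARRES2, CFD, LPL and MRAP lie to the right of the dotted line at 1, with more than a 2-fold difference in every group (3 of the values of CFD and LPL use an undetected array), and DGAT2 lies just left of it at 0.89.

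RefSeq's table of gene starts held 25 of the 36 genes by name, with PLIN listed as Plin1, in 35 windows of 250 bases before and 50 after a start. Of the 5 genes that passed the 2-fold limit in replicate 2, it held ADIPOQ and CFD, shown because they are the hormone and the protease that set the replicates apart. The windows are chr16:23146286-23146585 (plus strand) for Adipoq and chr10:79890603-79890902 (plus strand) for Cfd, both in GRCm38.p6. Capitals mark matches, on either strand, to CCAAT (the CCAAT box), TTGCNNAA (a C/EBP motif) or GCGNGGGCG (the EGR motif).

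Adipoq: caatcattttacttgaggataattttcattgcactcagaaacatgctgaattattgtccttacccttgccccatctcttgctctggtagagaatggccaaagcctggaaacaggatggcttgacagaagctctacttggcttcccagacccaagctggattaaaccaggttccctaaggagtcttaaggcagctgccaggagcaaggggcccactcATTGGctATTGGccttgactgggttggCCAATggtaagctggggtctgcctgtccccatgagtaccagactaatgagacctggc
Cfd: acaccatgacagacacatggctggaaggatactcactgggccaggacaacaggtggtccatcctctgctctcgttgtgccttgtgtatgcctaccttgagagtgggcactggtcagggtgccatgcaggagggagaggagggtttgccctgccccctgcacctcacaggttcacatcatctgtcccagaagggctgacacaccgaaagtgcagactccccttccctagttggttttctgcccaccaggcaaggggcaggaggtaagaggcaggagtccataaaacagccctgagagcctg

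Adipoq held the CCAAT letters 3 times, from positions -34, -27 and -7 relative to the gene start, and none of the other motifs, and Cfd held none of the 3. CCAAT was found in 37.4% of all 32851 windows of this length, TTGCNNAA in 10.8% and GCGNGGGCG in 5.55%. A CCAAT match can share bases with a TTGCNNAA match. Among the members, TTGCNNAA was found in a window of 5 genes, Cidec, Lep, Plin1, Pparg and Zfp423. A match says only that the letters are there.

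FGF2 raised SCD1, the stearoyl-CoA desaturase that makes monounsaturated fatty acids, and no other member tested by more than 2-fold. SCD1 had intensities of 2590 and 2328 in -GFs, 5597 and 4554 with FGF2 and 2309 and 2428 with BMP4. Both FGF2 arrays lay above all 4 others, and the log2 fold change against -GFs was 1.04 (SE 0.165, n = 2 arrays per group, limma's adjusted p = 0.0202), or 2.06-fold, with 1.11 in replicate 1 and 0.97 in replicate 2. It was the 1 call among 24 members at an adjusted p under 0.1 and more than a 2-fold change, against 3.53% of all genes. SCD1 lies just past the fold limit: it was 0.96 with arrays scaled only to their median and without -GFs replicate 2, and its adjusted p was 0.149 without FGF2 replicate 1 and 0.109 without FGF2 replicate 2.

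LPIN1, which codes for the phosphatidate phosphatase lipin 1 that makes diacylglycerol, fell with FGF2. Its intensities were 451 and 601 in -GFs, 350 and 280 with FGF2 and 451 and 478 with BMP4, with both FGF2 arrays the lowest of the 6. The log2 fold change against -GFs was -0.74 (SE 0.199, limma's adjusted p = 0.0818), with -0.37 in replicate 1 and -1.10 in replicate 2. A second probe of the gene gave -0.51 (adjusted p = 0.142). The adjusted p rose above 0.1 without -GFs replicate 2 (0.262), either FGF2 array (0.192 and 0.375) or either BMP4 array (0.113 for each). SCD1 and LPIN1 were the 2 of 24 members past an adjusted p of 0.1 at any fold, against 11.8% of all genes.

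With the replicate number as a block, which takes the difference between the cultures out of the error, 9 of 24 members passed an adjusted p of 0.1, against 37.7% of all genes. SCD1 alone was higher, 1 of 24 against 18.1% of all genes, and 8 were lower, against 19.6%. The share in either direction, 37.5%, was close to that of all genes. Over the 24 members the median change on the log2 scale was -0.16, with 10 higher and 14 lower, and over all genes it was -0.02.

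Those 8 genes came from several steps of the programme. Of these, CEBPA and GPD1 were detected on neither FGF2 array and entered the tests through groups where they were higher, which favours a fall. Among the transcription factors, RXRA, the partner of PPARγ on DNA, had 627 and 841 in -GFs, 470 and 456 with FGF2 and 871 and 724 with BMP4. Its FGF2 arrays lay below all 4 others. The log2 fold change against -GFs was -0.65 (SE 0.193, adjusted p = 0.103, and 0.00499 with the block). CEBPD, an early factor of the cascade, had 2390 and 2273 in -GFs, 1928 and 1768 with FGF2 and 2579 and 2554 with BMP4, without overlap. Its log2 fold change was -0.34 (SE 0.142, adjusted p = 0.216, and 0.0732 with the block).

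CEBPA, which maintains the fat cell state together with PPARγ, was detected on both arrays of -GFs and of BMP4 and on neither array of FGF2. It had 197 and 241 in -GFs, 161 and 181 with FGF2 and 214 and 261 with BMP4, which places -GFs at least 1.13-fold above FGF2 (adjusted p = 0.301, and 0.0629 with the block). CEBPB, the other early factor, had 11386 and 14072 in -GFs and 13605 and 16939 with FGF2, and these arrays overlapped (log2 fold change 0.26, SE 0.185, adjusted p = 0.449). PPARG, the master factor of fat cells, had 2292 and 2253 in -GFs, 2215 and 3113 with FGF2 and 2505 and 3255 with BMP4, so that FGF2 lay on both sides of -GFs (0.21, SE 0.216, adjusted p = 0.621).

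The other 5 genes act on triglyceride. Those of its synthesis were LPIN1, described above, GPD1, AGPAT2 and DGAT2. GPD1, which supplies the glycerol 3-phosphate backbone, was detected only on the arrays of -GFs, at 192 and 235. It lay at 145 and 170 with FGF2 and at 171 and 192 with BMP4, at least 1.11-fold lower with FGF2 (adjusted p = 0.195, and 0.0226 with the block). GPD1 entered the tests only through -GFs, the group where it was high. The filter thus favoured a fall, and these p-values are no support for one. AGPAT2, which adds the second fatty acid to the backbone, had 1042 and 2142 in -GFs, 957 and 1073 with FGF2 and 1313 and 1848 with BMP4. Most of its difference lay in replicate 2, at -0.997 on the log2 scale against -0.12 in replicate 1 (adjusted p = 0.382, and 0.0192 with the block). Without -GFs replicate 1 it passed both thresholds, at -1.08 (adjusted p = 0.0963), and 2 members were called.

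DGAT2 had 558 and 1572 in -GFs, 441 and 835 with FGF2 and 695 and 1286 with BMP4. The groups overlapped, and within the replicates the changes on the log2 scale were -0.34 and -0.91 (adjusted p = 0.550, and 0.00590 with the block). PNPLA2 had 1452 and 2012 in -GFs, 1012 and 1391 with FGF2 and 989 and 1518 with BMP4. It was lower with FGF2 by nearly the same amount in both replicates, at -0.52 and -0.53 (adjusted p = 0.313, and 0.00761 with the block). DGAT1, the second enzyme of the last step, gave 0.15 (SE 0.169, adjusted p = 0.655).

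**Figure D3:**
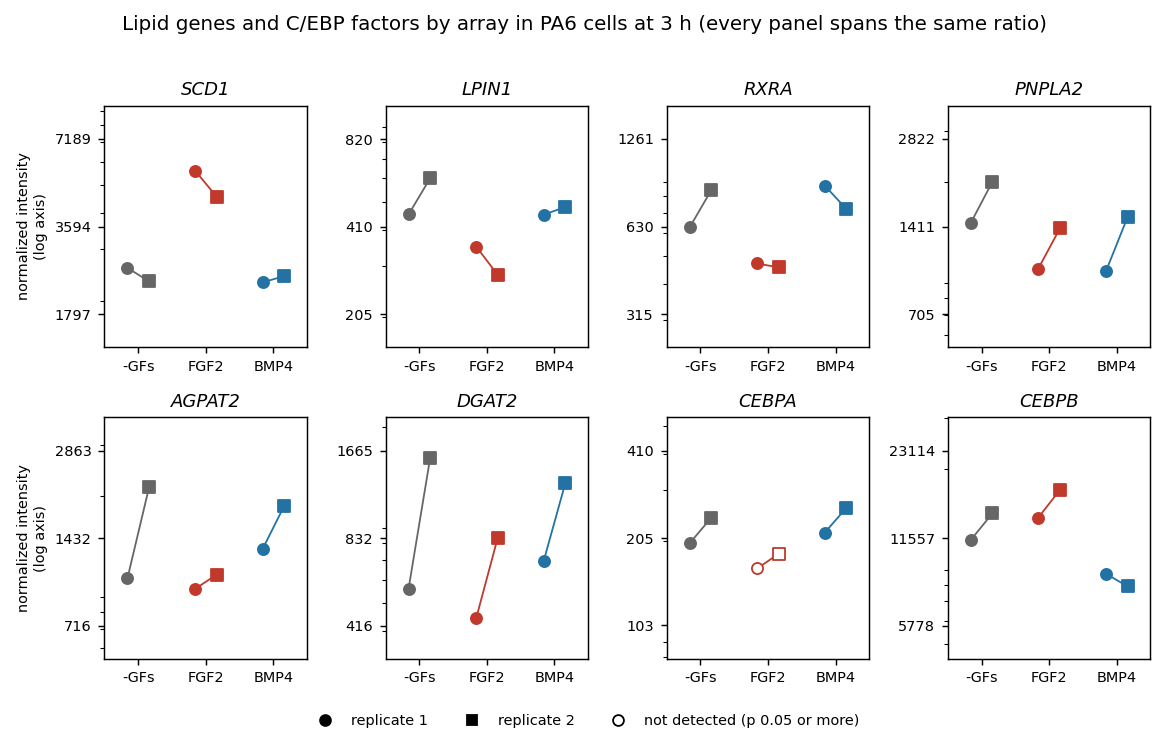
Normalized intensity (log axis, each panel spanning the same ratio) on the 6 arrays of SCD1, of 6 genes that were lower with FGF2 in the blocked fit and of CEBPB, with replicate 1 as circles, replicate 2 as squares and open symbols where the probe was not detected. SCD1 lies at 4554 and 5597 with FGF2 and at or below 2590 elsewhere, LPIN1 and RXRA are lowest with FGF2, and CEBPB is lowest with BMP4.

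The fat cell genes that differed between the cultures showed no difference with FGF2 larger than that spread. The log2 fold change was -0.27 for LPL (SE 0.865), -0.22 for CFD (SE 0.848), -0.33 for RARRES2 (SE 0.967) and 0.24 for MRAP (SE 0.800). By the probe used for each gene, none passed with the block either, where the adjusted p ran from 0.140 for RARRES2 to 0.371 for CFD. The other RARRES2 probe that followed the replicate number, ILMN_2596655, gave -0.32 when tested on its own (SE 0.830, limma's adjusted p = 0.857, and 0.0987 with the block). In ADIPOQ the FGF2 array of replicate 2, at 1750, lay below those of -GFs and BMP4, and a single pair of arrays allows no test. The RARRES2 probe that did not follow the replicate number, ILMN_2588295, had 339 and 384 in -GFs, 207 and 195 with FGF2 and 379 and 394 with BMP4. It was lower with FGF2 by -0.84 on the log2 scale (SE 0.149, limma's adjusted p = 0.0282 with every probe tested on its own, and 0.000181 with the block). The tests of single probes were added after the data had been seen.

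The rest of the members gave small values. DLK1, whose loss goes with fat cell formation, had 59587 and 56249 in -GFs, 63551 and 56842 with FGF2 and 62536 and 60694 with BMP4, near the upper end of the intensity scale. Its log2 fold change with FGF2 was 0.05 (SE 0.145). The fatty acid binding protein FABP5, ACSL1, the caveolar protein CAV1, the gluconeogenic enzyme PCK1, leptin (LEP) and the adiponectin receptors ADIPOR1 and ADIPOR2 lay between -0.17 (ADIPOR2) and 0.25 (CAV1), and none passed with or without the block. Groups that did not overlap were lower with FGF2 for 7 of 24 members, against 29.2% of all genes, and higher for 3 of 24, against 24.6%.

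Of the windows of gene starts, those of Rxra and Lpin1 are shown since these are the transcription factor and the triglyceride enzyme that were furthest below -GFs with FGF2. They are chr2:27676951-27677250 (plus strand), the first of 2 starts listed for Rxra, and chr12:16610917-16611216 (minus strand) for Lpin1, from RefSeq in GRCm38.p6, with the capitals as before.

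Rxra: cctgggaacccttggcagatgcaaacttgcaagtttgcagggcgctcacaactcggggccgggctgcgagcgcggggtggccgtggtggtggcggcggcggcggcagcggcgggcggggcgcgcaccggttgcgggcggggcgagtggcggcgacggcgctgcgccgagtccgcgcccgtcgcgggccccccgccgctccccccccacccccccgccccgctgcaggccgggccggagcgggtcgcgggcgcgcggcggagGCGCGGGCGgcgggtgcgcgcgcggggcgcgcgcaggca
Lpin1: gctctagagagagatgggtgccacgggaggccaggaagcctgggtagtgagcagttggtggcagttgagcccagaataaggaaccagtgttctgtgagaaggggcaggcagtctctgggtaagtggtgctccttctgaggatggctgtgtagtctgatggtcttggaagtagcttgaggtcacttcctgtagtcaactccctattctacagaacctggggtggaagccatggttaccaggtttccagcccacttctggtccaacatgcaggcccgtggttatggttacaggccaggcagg

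The first Rxra window held GCGNGGGCG once, from 11 bases after the start, and Lpin1 held none of the 3 motifs. The window of the other Rxra start, not shown, held none of the 3 either. Among the members, GCGNGGGCG was also found in a window of Adipor2, Cebpa, Klf15 and Lipe, 5 of 35 windows in all.

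BMP4 changed no fat cell gene past the threshold. Of 24 members none was called by limma, against 0.00842% of all genes, or 1 gene, and none was called with the replicate block, against 0.0842%. None passed an adjusted p of 0.1 at any fold either, against 0.00842% without and 0.227% with the block. At an unadjusted p under 0.05 it was 1 of 24, against 1.81% of all genes, and the methods' t-test gave 1 at that level, PCK1. PCK1 was detected only on the 2 BMP4 arrays, at 193 and 195, against 172 and 177 in -GFs. It thus entered the tests only through the group where it was high, and that p-value is no support for a rise. Against the limit of detection it was at least 1.01-fold higher with BMP4. The members' median was 0.00 on the log2 scale, with 12 higher and 12 lower.

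The single member past the unadjusted threshold in limma was CEBPB. It had 11386 and 14072 in -GFs and 8725 and 7885 with BMP4, so that both BMP4 arrays lay below all 4 others. The log2 fold change was -0.61 (SE 0.185, 95% interval -1.05 to -0.17, limma's adjusted p = 0.999, and 0.180 with the block), with -0.38 in replicate 1 and -0.84 in replicate 2. PNPLA2 gave -0.48 (95% interval -1.15 to 0.19) and PPARG 0.33 (-0.19 to 0.84). For LPL, CFD, RARRES2, MRAP and DGAT2 the interval reached past a 2-fold change on both sides in this fit, where the difference between replicates enters the error. With the block it ran from -0.15 to 0.45 for LPL, from -0.54 to 0.20 for CFD, from -0.52 to 0.17 for RARRES2, from -0.22 to 0.36 for MRAP and from -0.32 to 0.35 for DGAT2, each within a 2-fold change. CFD was undetected in replicate 1 of both groups, at 169 in -GFs and 154 with BMP4. Its interval thus rests in part on values at background.

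**Figure D4:**
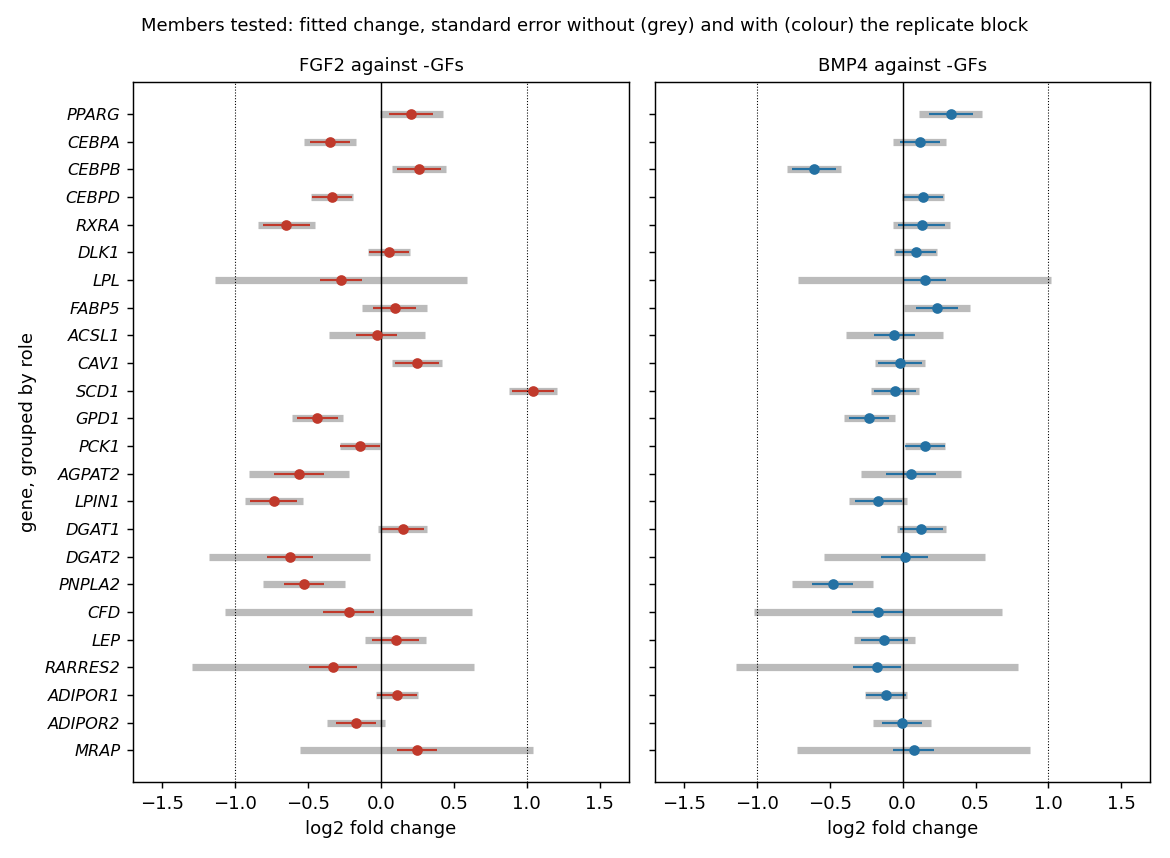
Fitted log2 fold change against -GFs of the 24 members tested, with FGF2 (left) and BMP4 (right); grey bars are the standard error without the replicate block, coloured bars that with it, and dotted lines mark a 2-fold change. SCD1 alone passes 1, at 1.04 with FGF2, and the wide grey bars are those of LPL, DGAT2, CFD, RARRES2 and MRAP, which differ between replicate numbers.

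Set directly against BMP4, FGF2 left SCD1 higher and 2 transcription factors on opposite sides. SCD1 was 1.09 higher on the log2 scale (SE 0.165, limma's adjusted p = 0.0204) and was the 1 member of 24 called, against 3.07% of all genes. At any fold, 3 of 24 passed an adjusted p of 0.1, against 9.06% of all genes. The other 2 were CEBPB, higher with FGF2 by 0.87 (SE 0.185, adjusted p = 0.0506), and RXRA, lower by -0.78 (SE 0.193, adjusted p = 0.0745). With the block, 9 of 24 passed, against 34.2% of all genes. Higher were 2 of 24, against 16.3% of all genes, and lower were 7, against 17.9%. SCD1 was not called here without either FGF2 array or without BMP4 replicate 1, when no member was called.

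Further genes of the fat cell programme, 118 in 7 lists, were read from the same fit. Of these, 115 had a probe and 75 were tested. FGF2 raised 5 of the 75 past the threshold, against 2.28% of all genes, and lowered 3, against 1.25%, and BMP4 changed none past it, by limma with or without the block. With FGF2 the 8 calls became 4 without FGF2 replicate 1 and 3 without FGF2 replicate 2. At any fold 8 of the 75 were higher with FGF2 and 7 lower at an adjusted p under 0.1, against 6.03% and 5.77% of all genes. Among the activators of fat cell formation, 1 of 12 tested rose past the threshold, EGR2 (Krox20), an early zinc finger factor. It went from 331 and 439 in -GFs to 6086 and 7378 (log2 fold change 4.14, SE 0.217, adjusted p = 0.00110). NR1H3, the oxysterol receptor LXRα, was lower by 1.10 on the log2 scale and was called in the blocked fit alone (limma's adjusted p = 0.128, and 1.36e-05 with the block).

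Of the 17 genes tested from the list of repressors, 1 rose and 2 fell past the threshold. KLF2, which represses PPARG, rose by 1.25 (SE 0.168, adjusted p = 0.0132). WNT5B, a Wnt ligand that was put on this list but is known to promote fat cell formation in preadipocytes, fell by 1.34 (SE 0.193, adjusted p = 0.0158) and ZFP521, which holds back commitment to the fat cell line, fell by 1.31 (SE 0.182, adjusted p = 0.0146). These 3 genes lay apart from -GFs on both FGF2 arrays, with KLF2 at 4571 and 4973 against 2249 and 1784, WNT5B at 276 and 387 against 829 and 831 and ZFP521 at 339 and 334 against 971 and 721. At any fold 3 of the 17 were higher and 3 lower at an adjusted p under 0.1. The others were GATA2 at 0.96 (adjusted p = 0.0171), FOXC2 at 0.86 (adjusted p = 0.0701) and DDIT3 at -0.89 (adjusted p = 0.0559).

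Of 27 lipid genes tested, 1 rose past the threshold. At any fold 2 were higher and 2 lower at an adjusted p under 0.1. Besides ACSL4 these were ACSL3 at 0.67 (adjusted p = 0.0808), PLIN3 at -0.65 (adjusted p = 0.0926) and BSCL2 at -0.65 (adjusted p = 0.0864). ACSL4, which activates arachidonic acid, went from 276 and 157 to 1012 and 736 (2.05, SE 0.345, adjusted p = 0.0236). It was detected on 1 array of -GFs, 1 of BMP4 and 2 of FGF2. ACSL4 thus entered the tests only through FGF2, the group where it was high. The filter favoured a rise, and that p-value is no support for one, though the gene is among those counted as raised above. G0S2, an inhibitor of the lipase PNPLA2, was lower by 1.06 and was called in the blocked fit alone (limma's adjusted p = 0.288, and 3.89e-05 with the block). It had 1083 and 2677 in -GFs, 623 and 1073 with FGF2 and 1114 and 2444 with BMP4, higher in replicate 2 throughout but with less than a 2-fold difference under FGF2.

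Calls were also made in other lists. The adipokine LCN2 (lipocalin 2) rose by 1.94 (SE 0.442, adjusted p = 0.0530), 1 of 4 further adipokines tested. CD9, a surface protein of preadipocytes, rose by 1.29 (SE 0.181, adjusted p = 0.0147), 1 of 9 genes tested of that list. Of the 12 brown and beige fat cell genes, 2 were tested and neither was called. None of these 75 genes was more than 2-fold higher or lower in replicate 2 in all 3 groups, against 0.312% of all genes. The members, of which 4 of 24 were, had been listed with that difference already known.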

How the data were processed

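The authors deposited mean bead intensities per probe and array, without normalization between arrays, and a detection p-value; the labels name GenomeStudio 2011.01. Not used were 9 unheaded columns, holding values on 2045 lines, and 6 stray lines at the end. Intensities were cubic-spline normalized by an own version of that method, as the methods name it, and log2 values were tested with limma 3.58.1 (R 4.3.3) over all 6 arrays, 1 probe (largest mean) per gene, 11872 genes, Benjamini-Hochberg adjusted, called at adjusted p under 0.1 and a log2 fold change beyond 1. The fit was tested on simulated data. The labels give each replicate number as wells of 1 biological replicate, and deviations of same-numbered arrays correlated by 0.602, 0.741 and 0.579 over genes, so blocked values stand beside the main ones. The limit for an undetected group is the lowest detected signal. Members and lists were chosen with earlier results of these data known. All members are accounted for. Values on every array are given for members past an adjusted p of 0.1 against -GFs, those past 2-fold in all 3 replicate pairs, PPARG, CEBPA, CEBPB, CEBPD, ADIPOQ, FABP4, PLIN, LPL, CD36 and CFD, and, chosen after their values were seen, RXRA, GPD1, AGPAT2, DGAT2, PNPLA2, DLK1 and CIDEC. Alternatives were other normalizations (quantile, median scaling, neqc), detection filters, probe averaging, the block, eBayes options, 2-group fits, the methods' t-test and leaving out each array. Having 2 arrays per group limits the precision. A gene of the further lists is not reported here.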

Additional observations from a re-analysis of the deposited data

How the results depend on the processing

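Direction held for SCD1, LPIN1 and RXRA under FGF2 and for CEBPB under BMP4 in every alternative run. Of the 8 genes lower with FGF2 in the blocked fit, DGAT2 alone changed sign, in 1 run. It ranged from -1.37 to 0.12 on the log2 scale, and AGPAT2 from -1.08 to -0.04. The 1 member called with FGF2 became 2 with neqc, 2 with neqc and the replicate block, 0 with median scaling and 0 with the methods' t-test once adjusted, and 0 to 2 without 1 array. At any fold the 2 members became 9 with the replicate block, 7 with neqc and the block, 1 with the 2 groups alone and 0 with the adjusted t-test, and 0 to 4 without 1 array (4 without -GFs replicate 1). For BMP4 the count of 0 held, except for 1 gene by the unadjusted t-test. The 1 call between FGF2 and BMP4 became 2 with neqc and the block and 0 with the adjusted t-test, and 0 to 1 without 1 array. The 8 calls in the further lists became 15 with neqc and the block, 0 with that t-test and 3 to 9 without 1 array. The 4 members past 2-fold between replicates were 4 without any 1 pair and 2 of 17 among genes detected on all 6 arrays, since CFD and LPL leave that set. With median scaling the median of all genes with FGF2 was -0.10. The causes of the other shifts were not tested. Over these alternatives, single members gained an adjusted p under 0.1 with FGF2 17 times and lost it 10 times, the unadjusted t-test left aside, and none was gained with BMP4. Where an array was left out, the lone array was assumed to vary like the other groups. The block changed no call of a member at more than 2-fold and brought the 8 of the further lists to 10. The 2 arrays per group and probes near background limit what can be seen.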
